A study of Mus musculus with 37 samples.

Results

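Hearts from 14 mouse embryos of IVF set 5 were compared with hearts from 9 embryos of IVF set 2, both collected at stage E10.5 and measured by bulk paired-end RNA sequencing. Libraries were chosen by the description label, which begins with the letters IVF and the set number, and they make up 23 of the 37 libraries of the study. The labels do not spell out the letters or say what a set shares. All embryos came from Stra8-iCre; Nipbl Flox/+ sires and Isl1 Cre/+ dams. In Stra8-iCre mice the recombinase is active in the male germ line, so sperm carried either Nipbl Flox, a wild-type allele, or Nipbl FIN, a null allele. Isl1 Cre places a Cre recombinase in one Isl1 allele and leaves the carrier haploinsufficient for Isl1, so every embryo with one working Isl1 allele also carried Cre. The cross gave 4 genotypes, called here wild_type (Nipbl +/+; Isl1 +/+), Isl1_het (Isl1 +/-), Nipbl_het (Nipbl +/-) and double_het (Nipbl +/-; Isl1 +/-). Set 5 held 2 wild_type, 3 Isl1_het, 4 Nipbl_het and 5 double_het libraries, and set 2 held 3, 2, 2 and 2. The 2 sets were compared with genotype as a covariate. Libraries of one set may share a litter, a day or a preparation, and each set is a single unit, so p-values measure the spread between libraries and not between repeated sets.

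At mid-gestation the heart is a beating tube that is being divided into chambers. Its muscle cells make sarcomere and calcium-handling proteins, an endocardium lines the lumen, cushion mesenchyme forms the valves, an epicardium spreads over the surface, and primitive red cells from the yolk sac pass through. A dissected heart therefore also carries blood, and it can carry liver bud, foregut, pharyngeal arch or somite tissue from its surroundings. Developmental age is reflected in a timing programme in which LIN28A and LIN28B hold back the let-7 microRNAs and fall as the embryo ages, in the exchange of fetal for adult sarcomere proteins, and in the switch from embryonic to adult globins. Delay or warmth during collection is known to induce immediate early, heat shock and low oxygen genes. In bulk RNA, fewer cells of a type and less RNA per cell cannot be told apart.

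Library totals, in mega-counts (M), lay between 23.4 and 40.2 M in set 2 (median 36.8 M) and between 27.5 and 51.0 M in set 5 (median 37.1 M). They did not differ beyond the spread (exact permutation test within genotypes, two-sided, p = 0.570). Sex read from Xist and Y-linked genes was female in 5 of 9 libraries of set 2 and in 11 of 14 of set 5 (Fisher's exact test, two-sided, p = 0.363). All 26 pairs of libraries of one genotype and set differed by more than counting noise, with a chi-square of at least 7.46 per degree of freedom. A total of 3 libraries stood apart, and the main results are also given without them.

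The first was the library labelled Nipbl_het replicate 2 of set 5, which lay at 121.9 on the first principal component (35.2% of the variance), where the next library of set 5 lay at 16.6. Nipbl, which encodes the loader of cohesin, stood at 71.4 CPM in it (CPM being counts per mega-count after TMM scaling), above every other library, and so went against its label. Ddit3, a stress-induced transcription factor, was at 692 CPM in it and at most 25.8 CPM in the other libraries. The other 2 were set 2 wild_type replicate 7 and set 2 double_het replicate 8. They had the lowest positions on the first component, -36.0 and -36.1 against -19.1 for the next library, and the smallest TMM factors, 0.854 and 0.867. Embryonic globins took 8.92% and 4.63% of their reads, and 4.56% in set 2 Isl1_het replicate 4. Nipbl otherwise followed the labels in both sets. In set 2, the wild_type and Isl1_het libraries lay between 54.1 and 61.1 CPM and the libraries with a null Nipbl allele between 27.2 and 30.3 CPM. In set 5 the ranges were 53.6 to 66.9 CPM and, with the library labelled Nipbl_het replicate 2 set aside, 32.9 to 41.7 CPM. With genotype fitted, Nipbl was higher in set 5 (log2 change 0.33, SE 0.11, adjusted p 0.0326), or 0.25 without that library (adjusted p 0.00230). Isl1, the transcription factor of cardiac progenitors, did not pass the test (log2 change -0.29, adjusted p 0.279).

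These sequences are shown because the largest gene groups below are described by them: the let-7 microRNAs, their sites in timing genes, and the start regions of a red cell gene and a ribosomal protein gene. The mature mouse let-7 microRNAs (RefSeq, GRCm38.p6), 5′ to 3′ with the seed of bases 2 to 8 in capitals, share that seed. The members let-7a, let-7d and let-7i differ outside it.

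mmu-let-7a-5p: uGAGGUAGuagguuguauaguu
mmu-let-7d-5p: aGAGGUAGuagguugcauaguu
mmu-let-7i-5p: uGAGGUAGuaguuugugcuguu

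The matching site, CTACCTCA, pairs with the seed and has an A opposite the first base. It was searched on the sense strand of the 3′ untranslated region of each gene's longest coding transcript in GENCODE M21 and was found in 8 of the 9 timing genes tested, against 543 of 13770 genes (3.94%). The genes had been chosen as known let-7 targets and regulators, so the share describes the list. The first site of 5 of them is printed 5′ to 3′ with the site in capitals.

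Lin28a: cacagcctgttgaaCTACCTCAtt
Lin28b: cccgggcgggaagtCTACCTCAtg
Igf2bp1: ctgtgcgaagtaaaCTACCTCAag
Trim71: acattgcctaagtcCTACCTCAgc
Hmga2: ccgacattcaatttCTACCTCAgc

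Lin28a held 2 sites, Igf2bp1 3 and Trim71 4, and Mycn held 0. A letter match is a description and not a measured binding event.

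Start regions of 300 bases are printed for Rhd (chr4:134864286-134864585, plus strand) and Rpl31 (chr1:39367601-39367900, plus strand), from RefSeq on GRCm38.p6, the build family named in the submitters' processing notes. Each runs from 250 bases before to 50 bases after the gene's start. Capitals mark AGATAA, the letters that GATA factors bind, in Rhd and CTTTCC, a run of pyrimidines, in Rpl31. The match in Rpl31 lies within the 50 bases after the gene's start and not at the start itself.

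Rhd: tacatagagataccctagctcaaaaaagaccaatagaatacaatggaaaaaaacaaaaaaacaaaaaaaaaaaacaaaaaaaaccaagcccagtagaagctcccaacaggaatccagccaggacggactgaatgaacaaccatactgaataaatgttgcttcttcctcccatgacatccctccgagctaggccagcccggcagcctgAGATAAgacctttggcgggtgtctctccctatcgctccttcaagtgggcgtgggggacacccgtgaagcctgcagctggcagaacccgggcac
Rpl31: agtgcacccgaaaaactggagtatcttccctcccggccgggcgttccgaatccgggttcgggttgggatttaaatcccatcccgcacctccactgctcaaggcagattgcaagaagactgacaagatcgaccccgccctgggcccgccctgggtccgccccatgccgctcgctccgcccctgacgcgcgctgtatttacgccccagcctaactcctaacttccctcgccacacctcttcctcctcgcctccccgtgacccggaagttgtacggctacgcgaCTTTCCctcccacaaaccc

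AGATAA or its reverse complement TTATCT was present in the start regions of 6 of 13 globin and erythroid genes with a matched region (46.2%), against 9.99% of 18651 genes. CTTTCC or its reverse complement GGAAAG was present in 30 of 65 ribosomal protein genes (46.2%), against 26.1% of all. Matches were counted anywhere in the region, so the shares do not describe the sequence at the start itself.

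Of 14791 genes tested, 3892 differed between the sets at an adjusted p under 0.05, which is 26.3% of the genes. They were split evenly, with 1958 higher in set 5 (13.2%) and 1934 lower (13.1%), and most changes were small: the median absolute log2 change of the called genes was 0.38, and 202 genes (1.37%) changed at least 2-fold. The larger changes were one-sided. Of these 202 genes, 32 were higher in set 5 (0.216%) and 170 lower (1.15%). The number higher moved with single libraries: 14 were higher without the library labelled Nipbl_het replicate 2, 13 without set 2 Nipbl_het replicate 9, 18 without set 2 Nipbl_het replicate 3 and 18 without set 2 double_het replicate 8. Without a genotype term 96 were higher. The values of the 2 sets did not overlap for 107 genes (0.723%), of which 95 were higher in set 5 (0.642%) and 12 lower (0.0811%). Without the library labelled Nipbl_het replicate 2, the common biological coefficient of variation fell from 0.220 to 0.151 and 5962 of 14748 genes were called (40.4%), 3049 higher (20.7%) and 2913 lower (19.8%). Of the 3892 genes, 3885 were called there in the same direction. Leaving out set 2 double_het replicate 8 lowered the count to 2044, and leaving out set 2 wild_type replicate 7 as well to 1481 (960 higher and 521 lower). With the Xist level as a covariate for sex it was 2406. Without the 3 libraries that stood apart it was 3760 of 14877 (25.3%).

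The 8 named genes that were higher in set 5 with the smallest p-values did not overlap between the sets. Podxl, which encodes the anti-adhesive surface protein podocalyxin, had a lowest, median and highest value of 192, 249 and 282 CPM in set 2 and of 284, 368 and 457 CPM in set 5. The sets did not overlap, and the log2 change was 0.54 (SE 0.06, adjusted p 1.59e-04). Nr6a1, a nuclear receptor of the early embryo that acts in axial patterning, stood at 4.36, 5.15 and 6.08 CPM in set 2 and at 7.11, 9.00 and 14.3 CPM in set 5. It also showed no overlap (log2 change 0.84, SE 0.10, adjusted p 1.59e-04). Synm, which encodes the intermediate filament protein synemin of muscle, ranged from 14.6 to 25.8 CPM in set 2 and from 26.4 to 41.7 CPM in set 5 (log2 change 0.75, SE 0.09). The cGMP-dependent kinase gene Prkg1 (0.70), the kinesin gene Kif1b (0.50), the BEN-domain gene Bend4 (0.50), the polarity gene Crb2 (0.43) and the synaptic vesicle protein gene Sv2a (0.43) completed the 8 and did not overlap either. In all 8 the change kept its direction within each of the 4 genotypes, as the rule for naming them required.

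Among lower genes with the smallest p-values, Osgep, which encodes an enzyme of tRNA modification, was the one without overlap. It stood at 59.6, 69.9 and 88.4 CPM in set 2 and at 41.3, 52.7 and 57.0 CPM in set 5 (log2 change -0.45, SE 0.07, adjusted p 7.33e-04). Emp3, a membrane protein gene, stood at 8.87, 9.77 and 14.1 CPM in set 2 and at 5.05, 6.69 and 9.70 CPM in set 5, where 13 of 14 libraries lay below all of set 2 (log2 change -0.65, SE 0.11). Also lower were the membrane protein genes Ifitm2 (-0.44, but 0.01 with an offset for gene length) and Cd55 (-0.65), the galectin gene Lgals9 (-0.70), Ost4 (-0.53), a small subunit of the oligosaccharyltransferase, and Tpt1 (-0.45), which encodes the translationally controlled tumour protein.

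By size of change, the higher genes were led by Clcn5, an endosomal chloride transporter gene, and Bmp10, which encodes a growth factor of trabecular muscle. Bmp10 stood at 2.95, 10.7 and 16.0 CPM in set 2 and at 10.45, 22.4 and 37.6 CPM in set 5 (log2 change 1.27, SE 0.29, adjusted p 0.00443), with 11 of 14 libraries of set 5 above all of set 2. Clcn5 changed by 1.27 as well (SE 0.25, adjusted p 0.00222), and Cmtr1, an mRNA cap methyltransferase gene, by 1.16. The lower genes of the largest change were red cell genes: Cldn13 (-2.60), Rhd (-2.56), Hbb-y (-2.39) and Pdzk1ip1 (-2.37). The plot of 8 genes in each library shows both kinds, tight and separated for Podxl and spread over orders of magnitude for Hbb-y.

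**Figure D1:**
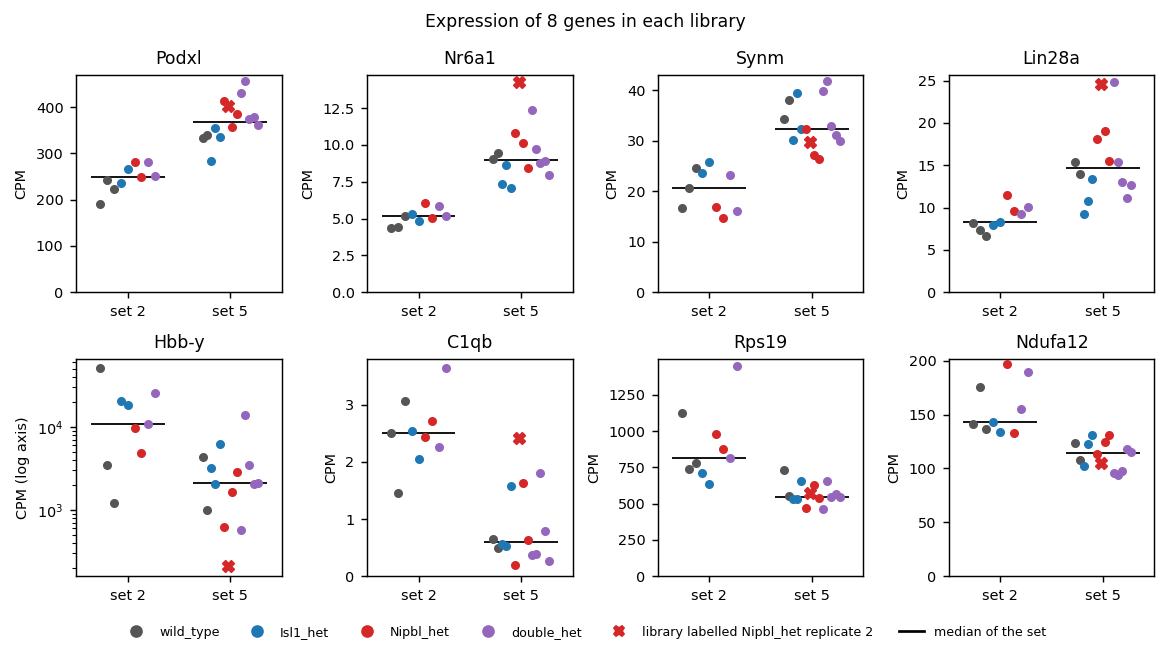
Expression in CPM after TMM scaling in each of the 9 libraries of set 2 and 14 of set 5, coloured by genotype, with the median of each set as a line; the axis of Hbb-y is logarithmic and the others start at 0. Podxl, Nr6a1, Synm and Ndufa12 do not overlap between sets, while Hbb-y runs from 1220 to 50296 CPM in set 2 and from 208 to 13736 CPM in set 5.

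Of 9 genes of developmental timing tested, 6 were higher in set 5, where 13.2% of all genes were, 0 were lower and the median log2 change was 0.27, against 0.003 over all genes. Lin28a, the RNA-binding protein that blocks let-7 maturation, had values of 6.64, 8.28 and 11.5 CPM in set 2 and of 9.29, 14.7 and 24.8 CPM in set 5. The sets overlapped in 3 libraries of set 5, and the log2 change was 0.75 (SE 0.13, adjusted p 0.00110). Its paralog Lin28b stood at 10.7, 12.5 and 13.1 CPM in set 2 and at 12.8, 16.3 and 24.4 CPM in set 5, with 13 of 14 libraries above all of set 2 (log2 change 0.46, adjusted p 0.00264). Trim71, a ubiquitin ligase and RNA-binding protein that is itself a let-7 target, changed by 0.91 (adjusted p 0.00419), and Igf2bp1, which encodes a fetal RNA-binding protein that stabilises transcripts, by 0.27 (adjusted p 0.00216). Igf2bp1 did not overlap: it lay between 144 and 179 CPM in set 2 and between 185 and 243 CPM in set 5. Mycn, a growth-promoting transcription factor gene, was higher by 0.35 and Igf2bp2 by 0.24. Hmga2, a chromatin protein gene, missed the threshold with all libraries (0.22, adjusted p 0.0505) and passed it without the library labelled Nipbl_het replicate 2 (0.25, adjusted p 0.00725), where 7 of the 9 were higher. Igf2bp3 (0.08) and Arid3a (-0.001) did not pass. The list is of long genes, with a median exon length of 7402 bases. With the offset for length described further on, 4 were higher and the median was 0.12, and with erythroid level as a covariate 0 were called and the median was 0.28.

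Genes with the let-7 site were described apart from the timing list. Of 535 such genes, 21.5% were higher in set 5 and 5.42% lower (median log2 change 0.10). Of 13223 genes without the site, 13.7% were higher and 13.2% lower (median 0.01). Genes with a site also had longer 3′ untranslated regions, with a median of 2567 bases against 1180 bases, and change between the sets was related to gene length as described further on. The part of length in the difference was not tested, and mature let-7 was not measured.

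Maturation genes of the cardiomyocyte were divided. Of 24 tested, 3 were higher, 10 were lower and the median log2 change was -0.24, where 13.2% of all genes were higher and 13.1% lower. The 3 higher genes all serve calcium cycling. Slc8a1, the sodium-calcium exchanger gene, stood at 483, 635 and 762 CPM in set 2 and at 718, 932 and 1123 CPM in set 5 (log2 change 0.59, SE 0.09, adjusted p 7.32e-04), with 13 of 14 libraries above all of set 2. Ryr2, the calcium release channel of the sarcoplasmic reticulum, changed by 0.57 and Atp2a2, its calcium pump, by 0.45. The 10 lower genes included Mb (myoglobin, -0.53), Cox8b (a muscle cytochrome oxidase subunit, -0.77), S100a1 (a calcium sensor, -0.42), Fabp3 (a fatty acid carrier, -0.31) and Tnni3 (the adult cardiac troponin I, -0.45). Tnni3 ranged from 541 to 1432 CPM in set 2 and from 418 to 926 CPM in set 5, so the sets overlapped, and it was not called without the 3 libraries that stood apart (-0.25, adjusted p 0.0623). There, 4 members were higher and 5 lower. With an offset for gene length, 4 were higher and 2 lower, and the median was 0.03.

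Of 14 contractile genes of the early heart, 2 were higher and 2 lower (median 0.01), close to the 26.3% of all genes called. Ttn, the giant sarcomere protein titin, changed by 0.52 and Actn2, the Z-disc actinin, by 0.25. The atrial light chain genes Myl7 (-0.33) and Myl4 (-0.39) were lower, and neither passed once the 3 libraries that stood apart were left out (adjusted p 0.158 and 0.166). With the length offset Myl7 stood at 0.15.

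Ratios of isoforms that exchange with age were compared within genotypes. The log2 ratio of Hbb-y to Hbb-bh1, both embryonic beta globins, had a lowest, median and highest value of 0.54, 0.66 and 0.99 in set 2 and of 0.38, 0.62 and 0.85 in set 5. It was lower in set 5 by 0.14 within genotypes (exact permutation test, two-sided, p = 0.00337, adjusted over 4 ratios 0.0135), and the sets overlapped over most of their range. The log2 ratio of Tnni3 to Tnni1, adult to fetal troponin I, stood at -1.83, -1.70 and -1.05 in set 2 and at -1.96, -1.57 and -1.41 in set 5. Its difference within genotypes was -0.13 (exact permutation test, two-sided, p = 0.00965, adjusted 0.0184), although the median of set 5 was the higher one. Without set 2 double_het replicate 8 the difference was -0.07 (exact permutation test, adjusted p 0.0910). Without set 2 Nipbl_het replicate 9 it was -0.11 (exact permutation test, adjusted p 0.0536). Without strata by genotype, set labels were shuffled at random over all libraries, and neither ratio passed. The difference was -0.09 for the globins (random permutation test, adjusted p 0.401) and -0.05 for the troponins (random permutation test, adjusted p 0.853). The ratio of Myh6 to Myh7, the adult and fetal myosin heavy chains, did not differ beyond the spread, with medians of -0.33 and -0.31 (exact permutation test, two-sided, p = 0.776). Few reads were counted to adult alpha globin. Hba-a1 and Hba-a2 together had 0 to 4 reads per library and were at 0 in 18 of 23. How reads shared by near-identical genes were counted is not given, so these counts do not show that the transcripts were absent. The ratio of Hba-a to Hba-x, the fourth of those tested, rests on too few reads to be described and is not read here.

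Red cell genes were lower in set 5 as a group. All 13 erythroid genes tested and all 3 embryonic globins were lower, with median log2 changes of -2.07 and -2.27. Of all genes 13.1% were lower. Hbb-y had values of 1220, 10932 and 50296 CPM in set 2 and of 208, 2089 and 13736 CPM in set 5 (log2 change -2.39, SE 0.58, adjusted p 0.00632). The sets overlapped widely, and 4 libraries of set 5 lay below all of set 2. Rhd, a red cell membrane protein gene whose start region is printed above, stood at 4.66, 38.2 and 139 CPM in set 2 and at 0.889, 7.88 and 36.3 CPM in set 5 (-2.56, adjusted p 0.00239). Epor, the erythropoietin receptor gene, fell by 1.52 on the log2 scale, and Trim10 and Ermap, both of maturing red cells, by 2.24 and 2.15. Without the 3 libraries that stood apart, 12 erythroid genes and 2 globins were still lower, with medians of -1.42 and -1.51; Hbb-bh1 was not called (-1.37, adjusted p 0.0592). The summed CPM of the 3 globins ran from 2676 to 104402 in set 2 (median 23349) and from 470 to 31655 in set 5 (median 4849). The set accounted for 33.0% of the variance of mean erythroid level, so most of it lay within sets.

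When mean erythroid level was added to the fit as a covariate, an alternative chosen after the data were seen, 14 genes were called, 13 of them higher in set 5, and 0 genes of any list. The 8 higher genes of smallest p-value were among the 14, Podxl at 0.51 and Nr6a1 at 0.68. Without the library labelled Nipbl_het replicate 2, the same fit called 955 genes, 685 higher and 270 lower, and 757 of them were among the 3892. Under the covariate the median of the timing genes was 0.28 and that of ribosomal protein genes was -0.29. Since erythroid level also differed between the sets, the covariate takes up part of the set difference.

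Macrophage genes were lower too. Of 12 tested, 8 were lower and 0 higher, with a median log2 change of -1.33, where 13.1% of all genes were lower. With the offset for gene length described further on, 5 were lower and the median was -1.18. C1qb, a complement subunit made by tissue macrophages, stood at 1.46, 2.51 and 3.63 CPM in set 2 and at 0.198, 0.603 and 2.42 CPM in set 5 (log2 change -1.62, SE 0.35, adjusted p 0.00366), where 10 of 14 libraries lay below all of set 2. Fcgr1 (an antibody receptor, -1.71), Tyrobp (a myeloid adaptor, -1.18) and Mrc1 (the mannose receptor, -0.56) were also lower. The summed level of the list ran from 13.9 to 23.5 CPM in set 2 and from 4.98 to 18.1 CPM in set 5, apart from the library labelled Nipbl_het replicate 2, which was the highest of all at 36.4 CPM. Without it, all 11 genes tested were lower, against 19.8% of all genes. All these levels are low. With erythroid level as a covariate the median of the list was -1.47, and 0 of the 12 were called. Of 8 platelet genes, 0 passed the test (median -0.25).

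**Figure D2:**
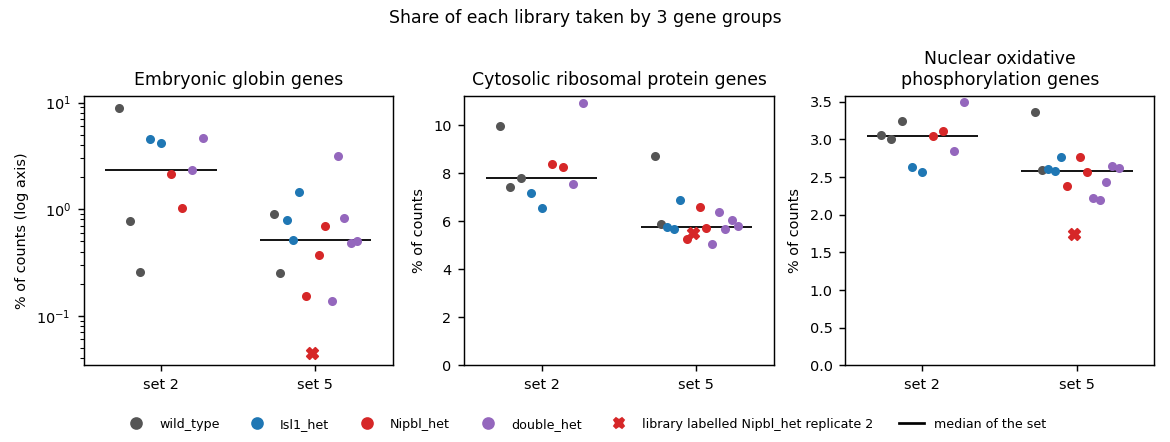
Share of reads in percent taken by gene groups in each library of set 2 and set 5, coloured by genotype, with set medians as lines. The globin axis is logarithmic and spans 0.259% to 8.92% in set 2 and 0.0446% to 3.14% in set 5; ribosomal protein genes took at least 6.56% in set 2 and a median below that in set 5.

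Heart muscle genes were abundant in every library, with Myh6, the adult myosin heavy chain gene, at 3629 CPM or more in each. Markers of tissue around the heart were in large part too low to be tested: 6 of 16 listed liver genes were tested, 5 of 18 of endoderm, 13 of 18 neural, 6 of 12 of neural crest, 3 of 12 of somite and 5 of 11 of pharyngeal arch. Of 6 liver genes 1 was lower, of 13 neural genes 2 were lower, of 6 neural crest genes 1 was higher and of 5 pharyngeal arch genes 0 passed, against 26.3% of all genes called in either direction. Trf, the transferrin gene, was the liver gene called (log2 change -0.81), and set 2 Nipbl_het replicate 9 held its highest value of 59.9 CPM. The summed liver level reached 516 CPM in one library of set 2 and lay at or below 29.0 CPM in all of set 5. Of 5 endoderm genes, Krt8, an epithelial keratin gene, was higher (0.41), while Epcam (-0.85, adjusted p 0.0671 without the 3 libraries that stood apart) and Cldn7 (-0.87), genes of epithelial contacts, were lower. Of 3 somite genes tested 2 were lower. Tcf15, a transcription factor gene of the paraxial mesoderm, stood at 1.03, 1.29 and 2.93 CPM in set 2 and at 0.322, 0.716 and 1.05 CPM in set 5 (-1.19, SE 0.24, adjusted p 0.00234), with 13 of 14 libraries below all of set 2. Meox1 changed by -0.61. Actn3, an actinin gene of skeletal muscle, did not pass (0.36, adjusted p 0.0671) but was higher without the library labelled Nipbl_het replicate 2 (0.43, adjusted p 0.00148). Of 9 Hox genes, which mark position along the body axis, 4 were lower (Hoxa2, Hoxa3, Hoxa5 and Hoxb4) and the median was -0.93. Without the 3 libraries that stood apart 1 of them was called, with a median of -0.35.

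Regions and layers of the heart held both higher and lower genes, to be read against the 26.3% of all genes called. The second heart field, progenitors at the arterial and venous poles, had 0 of 15 genes called (median -0.18), and the atrioventricular canal 0 of 7. Without the library labelled Nipbl_het replicate 2, 2 genes of the second heart field were lower, among them Tbx1 (-1.10, adjusted p 0.00191), a transcription factor of the pharyngeal progenitors, and 2 of the atrioventricular canal were higher. Outflow tract genes had 3 of 9 higher and 1 lower, among them Tdgf1 (a Nodal co-receptor, 0.89), Sema3c (a guidance ligand, 0.41) and Bmp4 (-0.36). Ventricular genes had 3 of 10 higher and 2 lower: Irx2 (0.40) and Hey2 (0.36), transcription factors of the ventricle, were higher and the ventricular light chains Myl2 (-0.44) and Myl3 (-0.34) lower; Myl3 was not called without the 3 libraries that stood apart (adjusted p 0.0502). Of 8 atrial genes, Angpt1 (0.53) and Tbx5 (0.28) were higher and Sln (sarcolipin, -1.48) lower. Trabecular genes had 2 of 7 higher and 1 lower, with Slit3 at 0.54 and Cited1 at -0.44. Endocardial genes had 1 of 18 higher (Kdr, a VEGF receptor gene, 0.32) and 2 lower. Cushion mesenchyme had 1 of 17 higher and 2 lower, with Vcan (a matrix proteoglycan, 0.46) higher and Lum (lumican, -1.28) and Postn (periostin, -0.37) lower. Of 12 epicardial genes 2 were higher and 0 lower. Wt1, the transcription factor of the epicardium, ranged from 38.5 to 62.9 CPM in set 2 and from 48.2 to 92.0 CPM in set 5 (0.30, adjusted p 0.00256), and Lrrn4 changed by 0.33. Without the library labelled Nipbl_het replicate 2, 5 epicardial genes were higher and 1 lower.

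**Figure D3:**
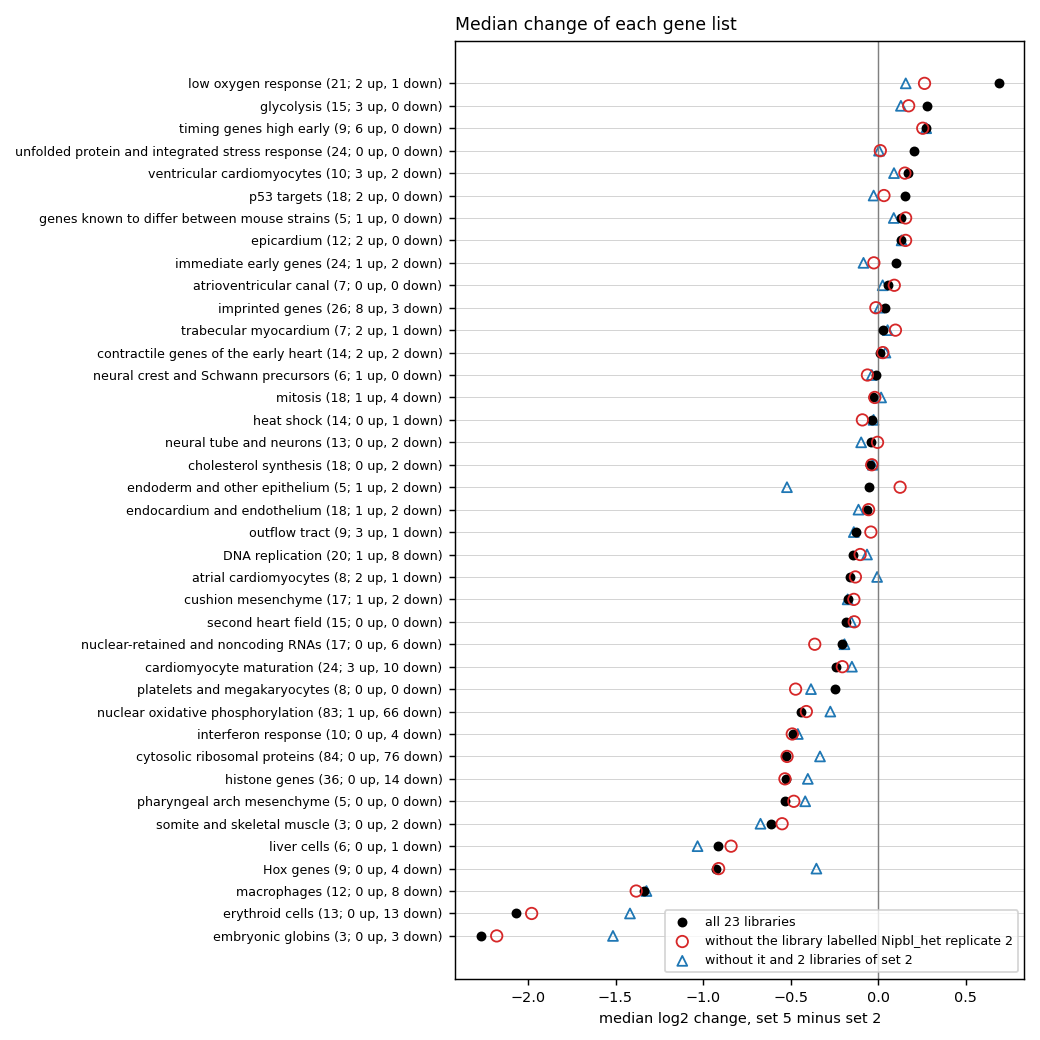
Median log2 change, set 5 minus set 2, of the tested genes of each list, with the number tested and the numbers called higher and lower beside its name; filled points use all 23 libraries, open circles leave out the library labelled Nipbl_het replicate 2, and triangles also leave out 2 libraries of set 2. Erythroid, globin and macrophage lists lie below -1 in all 3 fits, while low oxygen genes move from 0.69 to 0.26 without that library.

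With all 23 libraries, a smaller share was called in each list of collection stress genes than the 26.3% of all genes. Without the library labelled Nipbl_het replicate 2, 40.4% of all genes were called, 20.7% higher and 19.8% lower. Of 24 immediate early genes 1 was higher and 2 lower (median 0.10): Klf6 (0.33) was higher, and Socs3 (a feedback inhibitor of cytokine signalling, -0.48) and Myc (-0.64) were lower; without the library labelled Nipbl_het replicate 2, 2 were higher and 6 lower. Of 14 heat shock genes 1 was called, the constitutive chaperone gene Hspa8, which was lower by a log2 change of -0.26 (adjusted p 0.00267). Without that library 1 heat shock gene was higher and 3 were lower. The unfolded protein response had 0 of 24 called, and its median of 0.20 was 0.01 without that library, where 1 was higher and 4 lower. Summed immediate early levels had medians of 584 CPM in set 2 and 575 CPM in set 5. Of 18 p53 targets 2 were higher, Zmat3 (0.22) and Eda2r (0.57). Without the library labelled Nipbl_het replicate 2, 6 of the 18 were higher and 2 lower, a share above the 40.4% of all genes called.

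The level of low oxygen genes was highest in the library labelled Nipbl_het replicate 2. Of 21 tested, 2 were higher and 1 lower with a median of 0.69, which is 3 genes called against 26.3% of all genes. Without that library 6 were higher and 1 lower with a median of 0.26, against 40.4% of all genes called and 20.7% higher. Pdk1, the kinase that turns pyruvate away from mitochondria, stood at 145, 172 and 209 CPM in set 2 and at 212, 237 and 705 CPM in set 5, without overlap (log2 change 0.68, adjusted p 0.0151, and 0.53 without that library, adjusted p 0.00196). Slc2a1, the glucose transporter gene, had 609, 742 and 887 CPM in set 2 and 874, 1005 and 3916 CPM in set 5 (0.67, adjusted p 0.0271). Its highest value was in the same library, and the next was 1693 CPM. Of 15 glycolysis genes 3 were higher, Pgam1 (0.36), Hk1 (0.37) and Pfkl (0.30), where 13.2% of all genes were. Without that library 6 were higher and 0 lower, against 20.7% of all genes higher. Pfkfb4, another regulator of glycolysis, was lower (-0.57). Neither Pfkl (adjusted p 0.0762) nor Pfkfb4 (adjusted p 0.131) was called without the 3 libraries that stood apart. The summed level of low oxygen genes was at least 2199 CPM in set 5, with a median of 2421 CPM. The highest was 16324 CPM in the library labelled Nipbl_het replicate 2, and the next was 5074 CPM. Set 2 had a median of 1921 CPM and a highest value of 2338 CPM.

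The broadest group difference was in genes of short transcripts. The groups below are to be read against 13.1% of all genes lower and 13.2% higher. Of 84 cytosolic ribosomal protein genes, 76 were lower in set 5 and 0 higher, with a median log2 change of -0.52. Rps19, a small-subunit protein, had 633, 813 and 1449 CPM in set 2 and 464, 547 and 729.7 CPM in set 5 (-0.65, SE 0.11, adjusted p 0.00130), with 11 of 14 libraries below all of set 2. Rpl31, whose start region is printed above, changed by -0.64. Many ribosomal protein genes have near-identical processed copies, so their counts are uncertain. Of 83 nuclear genes of oxidative phosphorylation, 66 were lower and 1 higher (median -0.44). Ndufa12, a complex I subunit, stood at 133, 143 and 197 CPM in set 2 and at 94.4, 114 and 131 CPM in set 5, without overlap (-0.47, SE 0.08, adjusted p 0.00138). Without the 3 libraries that stood apart, 58 ribosomal protein genes (median -0.33) and 35 oxidative phosphorylation genes (median -0.27) were lower. Of 36 histone genes, 14 were lower and 0 higher (median -0.53), with 8 lower when those libraries were left out. H2bc3 (-1.19), a replication-dependent histone gene whose transcripts lack a poly(A) tail, and H1f10 (-0.35), a linker histone gene, were among them. Histone genes too are near-identical copies.

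Change was graded by gene length. With 14500 genes divided into 5 groups of 2900 by summed exon length in GENCODE M21, the median log2 change rose from -0.23 in the shortest group (55 to 2395 bases) through -0.07, 0.02 and 0.09 to 0.20 in the longest (7552 to 123179 bases). Of the shortest genes 32.1% were lower and 0.793% higher, and of the longest 34.0% were higher and 2.59% lower. The grading remained without the library labelled Nipbl_het replicate 2, from -0.22 to 0.17, and the shortest group stood at -0.22 with ribosomal protein and oxidative phosphorylation genes taken out. An offset for length fitted in each library, chosen after the data were seen, left 2385 genes called, 1139 higher and 1246 lower, of which 1845 were among the 3892. Under it 47 ribosomal protein genes were lower (median -0.28), 26 oxidative phosphorylation genes were lower (median -0.16) and 4 timing genes were higher (median 0.12). The library difference between long and short genes had a median of -0.29 in set 2 (-0.68 to 0.08) and of 0.20 in set 5 (-0.39 to 0.77, the highest being the library labelled Nipbl_het replicate 2), so the sets overlapped. Transcript length was not measured, and RNA integrity values were not analysed here.

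**Figure D4:**
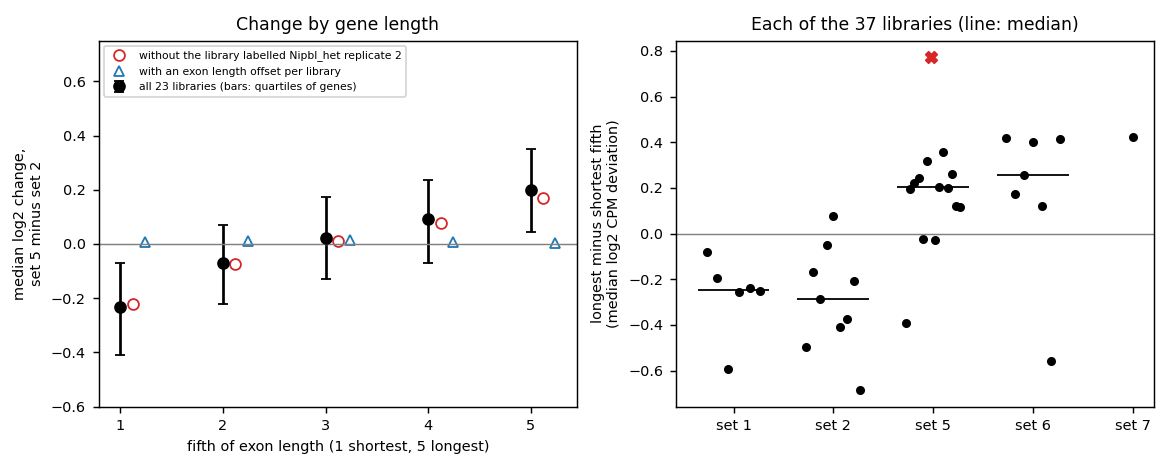
Left, median log2 change of genes by group of exon length, with bars for the quartiles of genes: it rises from -0.23 to 0.20, and lies near 0 with an offset for length. Right, the median log2 CPM deviation of the longest minus the shortest group in each of the 37 libraries, with the library labelled Nipbl_het replicate 2 as a cross and set medians as lines.

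Of 20 DNA replication genes, 8 were lower and 1 higher (median -0.14), where 13.1% of all genes were lower and 13.2% higher. The lower genes included Prim1 (DNA primase, -0.37) and Tyms (thymidylate synthase, -0.50). Tyms ranged from 66.8 to 118 CPM in set 2 and from 28.0 to 73.2 CPM in set 5. Of 18 mitosis genes, 4 were lower and 1 higher, close to the 26.3% of all genes called. Birc5 (-0.29), Ube2c (-0.20) and Ccnb2 (-0.19) were lower and Cenpf, a long gene of the kinetochore, was higher (0.19). The offset for length turned both Ccnb2 (0.07) and Cenpf (-0.06). Without the 3 libraries that stood apart 1 was higher and 1 lower, and Birc5 (adjusted p 0.255), Ube2c (adjusted p 0.170) and Cenpf (adjusted p 0.0968) were not called. Of 18 cholesterol synthesis genes 2 were lower, Fdps (-0.37) and Mvd (-0.20), where 13.1% of all genes were; Mvd stood at 0.02 with the offset for length and was not called without the 3 libraries that stood apart (adjusted p 0.0585). Of 10 interferon-response genes 4 were lower and 0 higher, against 13.1% of all genes lower. The 4 were Ifi27 (-0.84), Ifitm3 (-0.59), Bst2 (-0.41) and Oasl2 (-0.70). With the offset for length 2 of the 10 were lower, and the median was -0.13, against -0.48 without the offset.

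Imprinted genes, expressed from one parental allele, gave 8 higher and 3 lower of 26 tested (median 0.04). Of all genes 13.2% were higher and 13.1% lower. The list is of long genes, with a median exon length of 6195 bases. With the offset for length 9 were higher and 4 lower. Zim1, a maternally expressed zinc finger gene, stood at 6.66, 10.54 and 17.7 CPM in set 2 and at 10.2, 24.6 and 37.1 CPM in set 5 (log2 change 1.03, SE 0.19, adjusted p 0.00168), with 12 of 14 libraries above all of set 2. Peg3, its paternally expressed neighbour, had 64.6, 127 and 224 CPM in set 2 and 129, 263 and 328 CPM in set 5 (0.93, SE 0.19, adjusted p 0.00239). Both genes belong to one imprinted cluster, and both lay higher in set 5. Zdbf2 was higher (0.51), and Nnat, a membrane protein gene, was lower (-0.57). Without strand information, reads of overlapping imprinted transcripts cannot be told apart. Of 17 noncoding RNAs 6 were lower and 0 higher, against 13.1% of all genes lower. They included the snoRNA host Snhg8 (-0.71) and Kcnq1ot1 (-0.56), the antisense RNA of an imprinted domain. Of 5 genes known to differ between mouse strains, 1 was higher, Mid1 (0.63), against 13.2% of all genes higher.

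Within single genotypes the direction was shared. Of the 3892 genes, 3446 (called over all libraries) changed in the same direction in all 4 genotypes. Taken alone, 3736 kept the direction in wild_type, 3602 in Isl1_het, 3888 in Nipbl_het and 3891 in double_het. Each genotype entered the pooled result, so these counts are a description. With 2 to 5 libraries a set, 0 genes passed in wild_type and 0 in Isl1_het, 717 passed in Nipbl_het and 1178 in double_het. Lin28a changed by 1.00, 0.46, 0.87 and 0.67 in these 4 genotypes in turn, and Hbb-y by -2.77, -2.32, -2.44 and -2.06. Rps19 changed by -0.46, -0.23, -0.75 and -1.03, and Peg3 by 0.80, 0.19, 1.34 and 1.34. The test of whether the set difference itself varied with genotype called 0 genes with edgeR (547 at an unadjusted p under 0.05, smallest adjusted p 0.903). DESeq2 called 2 genes, Apoa2 and Pdlim7, with 827 at an unadjusted p under 0.05. The test of whether the effect of Nipbl loss varied with the set called 0 genes with either tool (1532 at an unadjusted p under 0.05 with edgeR and 1713 with DESeq2). Without the library labelled Nipbl_het replicate 2, edgeR again called 0 genes in both tests. There, 1371 and 2566 of 14748 genes had an unadjusted p under 0.05. The smallest adjusted p-values of these edgeR tests were 0.527 and 0.161. By chance alone a share of about 0.05 of genes has an unadjusted p under 0.05, and the counts for the Nipbl effect were larger. Set 2 held 2 Nipbl_het and 2 double_het libraries, so 0 calls do not show an equal effect of Nipbl loss in both sets.

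**Figure D5:**
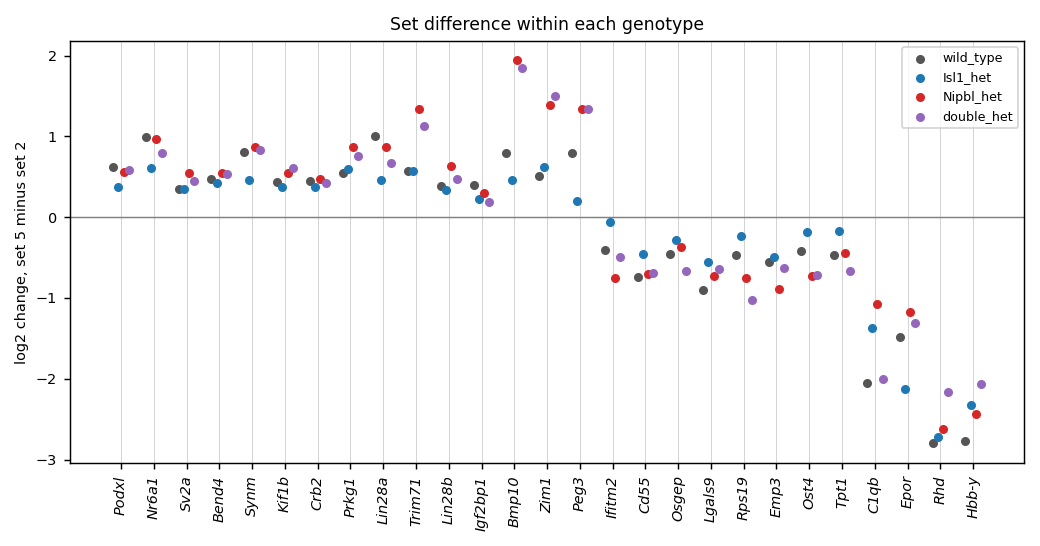
Log2 change between the sets of named genes within each of the 4 genotypes, each point being 1 genotype and 1 gene. Every gene shown keeps its direction in the 4 genotypes, which the naming rule required of the genes of smallest p or largest change. Hbb-y lies between -2.77 and -2.06.

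The remaining sets placed the pair in context. In one fit over all 37 libraries and the same 14791 genes, 5026 genes differed between sets 5 and 2 and 3531 between sets 6 and 2, against 148 between sets 6 and 5. Sets 1 and 2 differed in 1030 genes, sets 1 and 5 in 3371 and sets 6 and 1 in 3994. These comparisons share libraries, sets differ in size, and set 1 holds no library with a null Nipbl allele. The level of single genes did not give one order of sets. Lin28a had medians of 19.4, 8.33, 14.6 and 11.7 CPM in sets 1, 2, 5 and 6, and Hbb-y of 5270, 10913, 2085 and 6017 CPM. Rps19 had medians of 818, 811, 546 and 537 CPM, with sets 1 and 2 above sets 5 and 6, and Bmp10 of 6.54, 10.6, 22.4 and 31.1 CPM, with sets 5 and 6 above.

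Globin share and the difference between long and short genes went together in some libraries and not in others, and their relation was not tested. In set 2, wild_type replicate 7 and double_het replicate 8 had the most globin (8.92% and 4.63%) and the lowest length differences (-0.50 and -0.68). In set 5, the library labelled Nipbl_het replicate 2 had the least globin (0.0446%) and the highest length difference (0.77). Next were double_het replicate 1 (0.136% and 0.36) and Nipbl_het replicate 1 (0.154% and 0.32). Set 2 Isl1_het replicates 4 and 5 had globin shares of 4.56% and 4.18% and the highest length differences of set 2, -0.05 and 0.08, while set 2 wild_type replicate 10 had 0.259% and -0.29. What the embryos of one set shared in stage, dissection or handling cannot be told apart from the set itself.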

How the data were processed

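RNA was measured by bulk paired-end sequencing in 37 libraries of E10.5 hearts, of which 23 belong to sets 5 and 2. A Monarch miniprep kit served for total RNA and a NEBNext Ultra II kit for library construction, per the labels' protocols. Raw read counts were deposited by the authors, with 25239 gene rows and 1 column per library. STAR, featureCounts and the builds GRCm38 and mm10 are named in the submitters' processing notes, while versions, annotation and strand setting are not given in the sources used here. Counts of overlapping or near-identical genes are therefore uncertain.

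Genes were kept with filterByExpr by set (minimum count 10, minimum total 15), scaled with TMM and tested by edgeR's quasi-likelihood method (version 4.0.16, on R 4.3.3 with limma 3.58.1) with set and genotype as factors over the 23 libraries. Tests were two-sided with Benjamini-Hochberg adjustment over all genes tested and a threshold of 0.05. CPM values are after TMM scaling. Depth ran from 23.4 to 51.0 mega-counts per library. Ratios used raw counts with a pseudocount of 0.5 and an exact permutation of set labels within genotypes (31500 arrangements, smallest possible p 3.17e-05). Exon lengths came from GENCODE M21, which may differ from the authors' annotation, and matched 14500 of the 14791 genes.

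The libraries, gene lists and tests were chosen with earlier results of these data known. Named genes were Nipbl and Isl1, the 8 of smallest p and the 4 of largest change in each direction (mean log2 CPM of at least 1, not Xist or Y-linked, one direction in all 4 genotypes), up to 4 called members of each list with the smallest p, and the genes of the ratios. Outside this rule, Ddit3, Hmga2, Igf2bp2, Igf2bp3, Arid3a, Mb, S100a1, Fabp3, Hey2, Actn3, Tbx1, Apoa2 and Pdlim7 were named after their values were seen. Some genes that the rule names are not reported here.

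Tested on simulated data for this comparison over 14791 genes, with 200 genes drawn to change, the fit called 50.0% of genes with a log2 change of 0.5, 83.3% with 1 and 98.5% with 2, and 3.14% of its calls were unchanged genes. Simulated counts were independent between genes, with no blood or gene length difference shared by libraries. The share of unchanged genes among calls may therefore differ in the real data. Alternatives were DESeq2 1.42.0 and its size factors, voom with quality weights, a robust fit, other filters, all 37 libraries, no genotype term, Xist as a covariate, the title's replicate number as a block, globin genes removed, counts thinned to one depth, and each library left out. Added after the data were seen were leaving out the libraries that stood apart, an erythroid covariate and a length offset. Python 3.11.15, pandas 2.3.3 and matplotlib 3.10.9 were also used.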

Additional observations from a re-analysis of the deposited data

Results flagged for a closer look

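Within a group of 4 to 10 libraries, a value was listed when its gap to the nearest other value was large for the group's range; chance lists about 1 in 20 groups, and 8 of 131 named genes were listed. Set 2 wild_type replicate 7 stood apart most often. It had the highest Hbb-y (50296 CPM), Hbb-bh1 (33723 CPM) and Pdzk1ip1 (74.2 CPM) of the 9 libraries of set 2, the highest embryonic globin share (8.916%), and the lowest Myh6 (3629 CPM) and Crb2 (44.97 CPM). Set 2 Nipbl_het replicate 9 had the highest Trf (59.9 CPM), a liver gene, and the highest Hoxa3 (4.577 CPM), a Hox gene of the anterior trunk. Set 2 double_het replicate 8 had the highest Tnni3 (1432 CPM), the adult cardiac troponin I gene. In set 5, double_het replicate 3 had the highest embryonic globin share of its 5 libraries (3.139%), and Nipbl_het replicate 4 had the highest log2 ratio of Hbb-y to Hbb-bh1 of its 4 libraries (0.8525).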

How the results depend on the processing

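The count of 3892 genes stayed within 1.5 times under DESeq2 (4511), its size factors (3900), a robust fit (3896), no filter (3524), at least 10 counts in every library (3860), all 37 libraries (5026), no genotype term (4625), globin genes removed (3927) and counts thinned to one depth (3773). It was 7233 with voom weights, 2406 with Xist as a covariate, 1481 without the 2 libraries of set 2 that stood apart, 14 with erythroid level as a covariate, 955 with that covariate and no library labelled Nipbl_het replicate 2, and 2385 with the exon length offset. With 1 library left out it ran from 2044 to 5962. The 202 genes of at least 2-fold change became 323 with no filter, 112 with at least 10 counts in every library, 133 without the 3 libraries that stood apart, 81 without the 2 of set 2, 0 with erythroid level as a covariate and 45 with it and no library labelled Nipbl_het replicate 2. With 1 library left out they ran from 151 to 227. The causes were not tested.

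Replicate numbers in the titles run over the whole series and are shared by number only. With the number as a replicate block 4989 genes were called, 2680 higher and 2309 lower, and 3474 of them were among the 3892.

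The genotype by set test called 2 genes with DESeq2 and 0 to 2 with 1 library left out (Apoa2 and F2 without set 2 Nipbl_het replicate 3). Without strata by genotype, the log2 ratios differed by -0.0897 for Hbb-y to Hbb-bh1, 1.44 for Hba-a to Hba-x, 0.00305 for Myh6 to Myh7 and -0.0458 for Tnni3 to Tnni1, and none passed the threshold. With 1 library left out the last 3 ran from 1.49 to 1.90, -0.0494 to 0.00770 and -0.186 to -0.0713. Hba-a rests on at most 4 reads per library, so its values describe no fold. The difference in log2 change between the longest and shortest genes, 0.43, was -0.00349 with the length offset and -0.00675 with it and no library labelled Nipbl_het replicate 2, by the offset's construction. With erythroid level as a covariate that difference was 0.260.

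Under the length offset Ccnb2 changed sign to 0.0696, Cenpf to -0.0616, Ifitm2 to 0.00507, Mvd to 0.0157 and Myl7 to 0.145; without the library labelled Nipbl_het replicate 2 as well, Ccnb2 was 0.0562, Cenpf -0.0598 and Myl7 0.132. Under the erythroid covariate Ermap changed sign to 0.00812, Hbb-bh1 to 0.0760 and Pfkfb4 to 0.104; without that library Hbb-bh1 was 0.0582 and Pfkfb4 0.136. Of 131 named genes, 87 lost no call whichever library was left out, and 8 lost none under the other alternatives. Macrophage and many histone genes lie near 1 CPM, where few reads limit precision.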
